A study of Mus musculus with 6 samples.

Results

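The mRNAs of 7 proteins that carry vitamin A or bind it were followed across 6 RNA-seq libraries of Hepa1-6, an established mouse hepatoma line that arose in the C57/L strain. The members were taken by name from the 25078 genes of the deposited tables, and all 7 were found: Ttr, Rbp2, Rbp4, Rbp7, Crabp1, Crabp2 and Stra6. One library came from parental cells that received no vector (wt), 2 from cells transduced with a scramble vector (scr 25-2 and scr 50-1) and 3 from cells transduced with a midnolin shRNA vector (knockdown 25-3, 50-2 and 50-5). The transduced cells had been selected with puromycin and single-cell colonies were isolated by limiting dilution, so a library can carry features of 1 clone, and wt cells went through neither step. RNA-seq is described for the knockdown clones sh1 and sh2, but the labels tie neither to any of the 3 knockdown libraries. They also do not explain the numbers 25 and 50, and they do not say whether libraries of a group came from separate cultures, so p-values measure the spread between these libraries.

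Retinol, the transport form of vitamin A, leaves the liver bound to retinol binding protein RBP4, which circulates in a complex with transthyretin, the product of Ttr. STRA6 is a membrane receptor that takes retinol over from RBP4. Inside cells, small proteins of the intracellular lipid binding family hold retinoids in solution: RBP2 and RBP7 bind retinol, RBP2 mainly in the absorptive cells of the small intestine, and CRABP1 and CRABP2 bind retinoic acid, the active form that retinoic acid receptors recognize. Hepatocytes are the main source of circulating RBP4 and transthyretin.

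Library totals of reads assigned to genes ran from 25586301 to 33119710, of which the ribosomal transcript Rn45s took 10.1% to 13.1%. The level of Midn, the targeted gene, was 59.6 RPKM (reads per kilobase of exon, scaled for library depth) in scr 25-2, 50.8 in scr 50-1 and 60.5 in wt, against 20.3, 21.8 and 22.1 RPKM in knockdown 25-3, 50-2 and 50-5. Knockdown differed from scr by -1.38 on the log2 scale (standard error 0.133) at an FDR, the Benjamini-Hochberg adjusted p, of 0.00777 in the quasi-likelihood test of edgeR (n = 3 against 2 libraries). Of 10 hepatocyte markers, 7 exceeded 1 RPKM in at least 1 library, while Serpina1a had 0 counts in all 6. The summed level of the 10 was 5221 RPKM in the wt library, between 2894 and 3998 in the scr pair and between 187 and 944 after knockdown. Stellate cells, the retinoid-storing cells of liver, are marked by 6 listed genes whose summed level was 1.69 RPKM in wt, 0.104 to 0.921 in the scr pair and 0.376 to 1.25 after knockdown. The 4 macrophage and blood markers summed to 4.06 RPKM in wt, 4.15 to 4.70 in the scr pair and 8.58 to 13.6 after knockdown. Nearly all of that sum came from Cd68 and Csf1r, since Ptprc reached at most 0.160 RPKM and Adgre1 at most 0.0433 in any library. The 4 endothelial markers summed to 2.88 RPKM in wt, 0.158 to 0.163 in the scr pair and 0.141 to 0.358 after knockdown. In a library from many cells, fewer cells that express a gene cannot be told apart from less of its RNA per cell.

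Knockdown and scr libraries were compared over the 11577 genes with more than 1 RPKM in at least 1 of these 5 libraries. A call required a fold change of 1.5 or more and an FDR under 0.05, which was met by 10.6% of the genes tested, 5.40% up-regulated and 5.23% down-regulated. Of the 7 members, 4 passed the filter on RPKM. Among these, Stra6 and Rbp2 were up-regulated, Ttr was down-regulated and Rbp4 was not called. Rbp7, Crabp1 and Crabp2 stayed at or below 0.302 RPKM in every library and were not part of the test. The plot of RPKM by library shows these 3 patterns side by side.

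**Figure D1:**
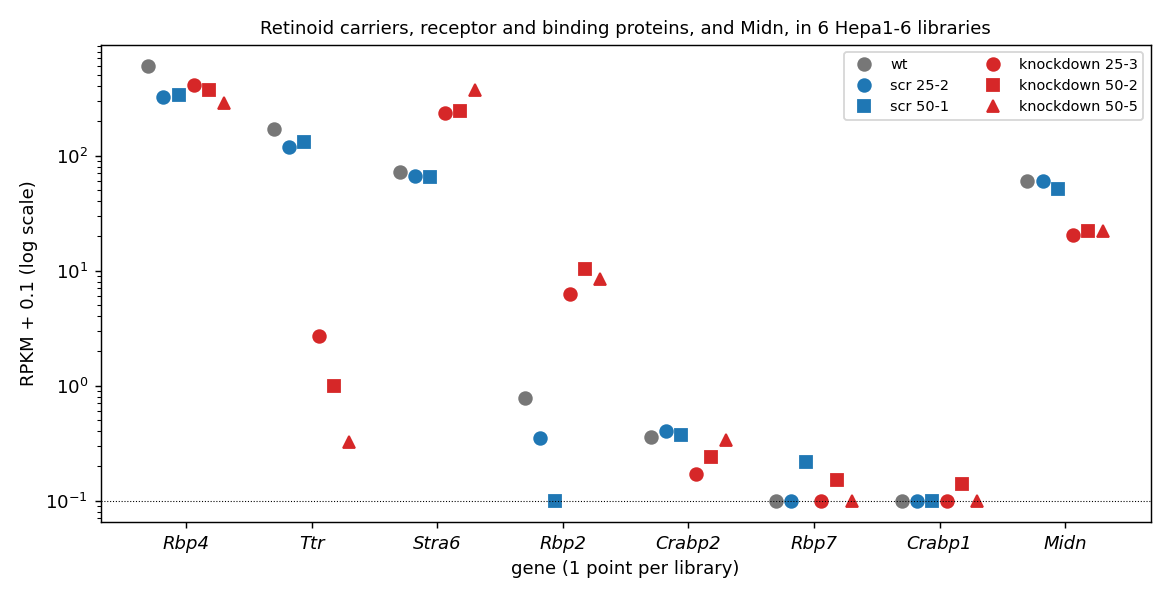
Level of each member and of Midn in every library, as RPKM + 0.1 on a log axis, with 1 point per library (grey wt, blue scr, red knockdown) and a dotted line where a count of 0 falls. The 3 knockdown libraries lie below both scr libraries for Ttr, at 0.223 to 2.59 RPKM, and above them for Stra6, at 235 to 370 RPKM, and Rbp2, at 6.17 to 10.3 RPKM, while those of Rbp4 lie on both sides of the scr pair.

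Among the plasma carriers, Rbp4 was the most abundant member in wt and scr cells. Rbp4 (chromosome 19 of mm10, 38116620 to 38125321, minus strand) had 597 RPKM in wt, 320 in scr 25-2 and 335 in scr 50-1, against 415 in knockdown 25-3, 375 in knockdown 50-2 and 285 in knockdown 50-5. One knockdown library thus lay below both scr libraries and the other 2 above them, and wt was highest of all. Knockdown and scr differed by 0.11 in log2 fold change, with a standard error of 0.183 and an FDR of 0.710 (edgeR quasi-likelihood test). The 95% interval of that log2 difference ran from -0.34 to 0.57, where the 1.5-fold required for a call is 0.585. A difference of that size was not excluded under other choices, since the interval reached 0.62 with the 25 or 50 as an added term, 0.70 without knockdown 50-2, 0.63 without knockdown 50-5, 0.71 without scr 25-2, 0.76 without scr 50-1 and, downwards, -0.85 with wt added to the controls. The sign was not fixed by these libraries: the log2 fold change was -0.22 with wt added to the controls and -0.0057 without knockdown 25-3. Rbp4 ranked between 43 (wt) and 95 (knockdown 50-5) of all genes by RPKM within its library.

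Ttr, whose protein holds RBP4 in the circulation, had nearly disappeared from the knockdown libraries. Ttr (chromosome 18, 20665250 to 20674326, plus strand) had 5413 counts in wt, 4294 in scr 25-2 and 4565 in scr 50-1, against 100, 35 and 9 counts in knockdown 25-3, 50-2 and 50-5. In RPKM the wt level was 170, the scr mean 125 ± 8.31 (SD, n = 2 libraries) and the knockdown mean 1.23 ± 1.22 (SD, n = 3), or 0.985% of the scr mean. The groups did not overlap, and wt lay on the side of scr. The log2 fold change was -6.68 (standard error 0.828, 95% interval -8.73 to -4.64, FDR 0.0121, edgeR quasi-likelihood test). With 1 of the 5 libraries left out at a time it lay between -7.83 and -6.19, and without knockdown 50-2 Ttr was not called (FDR 0.0780, edgeR quasi-likelihood test). By RPKM, Ttr ranked 343 and 354 in the scr libraries and 9424, 10885 and 12380 in knockdown 25-3, 50-2 and 50-5.

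The summed hepatocyte markers given above were also lower in every knockdown library than in either scr library, but the markers did not all go one way. Alb, which encodes albumin, had 336, 62.7 and 20.9 RPKM in knockdown 25-3, 50-2 and 50-5, against 1877 and 2804 in scr 25-2 and 50-1. Apob, which encodes the main protein of liver lipoproteins, had 52.2, 37.8 and 4.37 RPKM in the knockdown libraries in the same order, against 3.00 and 1.07 in scr (log2 fold change 3.93, FDR 0.0822, edgeR quasi-likelihood test). Of the 6 hepatocyte markers tested, 5 had log2 fold changes below 0, from -4.08 for Alb to -0.28 for Apoa2, and Apob was above 0. None of the 6 was called by edgeR, while 4 had an unadjusted p under 0.05, as did 31.5% of all genes tested, and DESeq2 called 3, against 20.1% of all genes. Their part in the result for Ttr was not tested. A noncoding gene on the opposite strand, Gm16090, overlaps Ttr in the annotation and had between 1 and 6 counts in every library. Whether counting used strand is not given, and without it reads of such a pair cannot be told apart.

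Relative to Rbp4, whose protein it accompanies, Ttr mRNA stood at 28.5% in wt, 37.3% in scr 25-2 and 39.1% in scr 50-1, as a ratio of RPKM within each library. In knockdown 25-3, 50-2 and 50-5 the ratio was 0.625%, 0.237% and 0.0780%. All 3 knockdown ratios lay below those of wt and scr. For the receptor, the ratio of Stra6 to Rbp4 was 0.121 in wt, 0.208 in scr 25-2 and 0.193 in scr 50-1, and it was 0.566, 0.649 and 1.29 in the knockdown libraries in the same order. Only in knockdown 50-5, of these 6 libraries, did the RPKM of Stra6 exceed that of Rbp4.

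**Figure D2:**
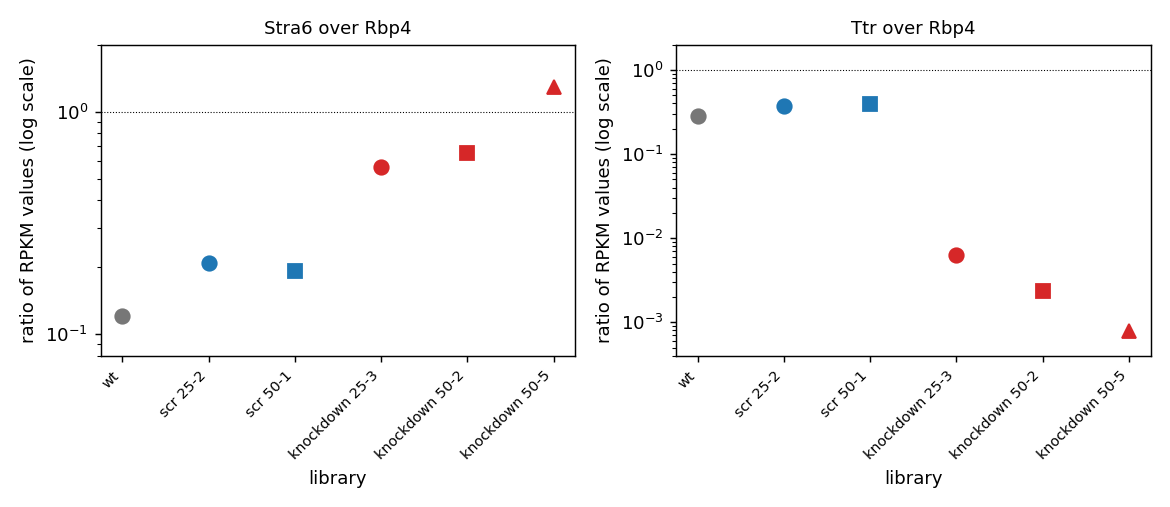
Ratio of RPKM values within each library for Stra6 over Rbp4 (left) and Ttr over Rbp4 (right), on log axes, with a dotted line at a ratio of 1 and 1 point per library. Stra6 over Rbp4 runs from 0.121 in wt to 1.29 in knockdown 50-5, and Ttr over Rbp4 falls from between 28.5% and 39.1% in wt and scr to below 1% in all 3 knockdown libraries.

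Stra6, the retinol receptor, rose in all 3 knockdown libraries. Stra6 (chromosome 9 of mm10, 58129088 to 58153997, plus strand) had 72.4 RPKM in wt, 66.7 in scr 25-2 and 64.7 in scr 50-1, against 235 in knockdown 25-3, 243 in knockdown 50-2 and 370 in knockdown 50-5. Its scr libraries differed by a factor of 1.03 and its knockdown libraries by 1.58, and the groups did not overlap. The mean rose 4.30-fold, from 65.7 ± 1.43 (SD, n = 2 libraries) to 283 ± 75.5 RPKM (SD, n = 3). The log2 fold change was 2.09 (standard error 0.256, 95% interval 1.46 to 2.73, FDR 0.0117, edgeR quasi-likelihood test). It stayed between 1.85, without knockdown 50-5, and 2.21 with 1 library left out at a time, and without knockdown 50-2 the FDR was 0.0509 in the edgeR quasi-likelihood test, so that Stra6 was not called there. By RPKM, Stra6 ranked 833 and 998 in the scr libraries, and 136, 121 and 53 in knockdown 25-3, 50-2 and 50-5. The related receptor of the liver, Stra6l, was at or below 0.0190 RPKM in every library.

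Rbp2, the intestinal retinol binding protein, went from a few counts to a clear signal in knockdown cells. Rbp2 (chromosome 9, 98490537 to 98509771, plus strand) had 12 counts in wt, 5 in scr 25-2 and 0 in scr 50-1, against 131, 224 and 187 counts in knockdown 25-3, 50-2 and 50-5. In RPKM the knockdown libraries had 6.17, 10.3 and 8.41, a mean of 8.30 ± 2.07 (SD, n = 3 libraries), and scr 25-2 had 0.253. The exact 95% Poisson interval for 12 counts in wt is 6.20 to 21.0 and that for 5 counts in scr 25-2 is 1.62 to 11.7, which covers counting error only, so a difference between these 2 libraries was not detectable at this depth, whereas the interval for 0 counts in scr 50-1, 0 to 3.69, lies below that of wt. The groups did not overlap.

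Rbp2 passed the RPKM filter only through the knockdown libraries, since wt and scr lay below 1 RPKM. Its log2 fold change was 5.94 (standard error 0.927, 95% interval 3.65 to 8.23, FDR 0.0195, edgeR quasi-likelihood test), and without the filter the FDR was 0.0142. Without knockdown 25-3, 50-2 or 50-5 it was 6.11, 5.77 or 5.93 and Rbp2 was not called, with an FDR of 0.0737, 0.0892 or 0.0705 in the edgeR quasi-likelihood test. The size of the change rested on the scr libraries, since 1 of them had no counts: it was 4.99 with scr 25-2 as the only control and 4.73 with wt added to both scr libraries. For folds against scr 50-1 a floor of 3 counts, the one-sided 95% limit for a count of 0, was used, which would be 0.157 RPKM. It is lower than the upper end of the two-sided interval given above. Against this floor Rbp2 was 39.4-fold higher in knockdown 25-3, 65.8-fold in knockdown 50-2 and 53.7-fold in knockdown 50-5. Even so, Rbp2 remained far below Stra6 and Rbp4 in RPKM, and of the genes over 1 RPKM in each knockdown library 30.6%, 44.3% and 38.6% were lower.

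The sequences before the annotated starts of the 2 up-regulated members and of the abundant carrier Rbp4 are shown because these genes show the rise and the overlapping levels described above. They are the 250 bases upstream of the start that the deposited annotation gives, 5′ to 3′ on the strand of the gene, from the RefSeq promoter table for GRCm38.p6. The position is chr9:58128838-58129087, plus strand, for Stra6, chr9:98490287-98490536, plus strand, for Rbp2 and chr19:38125322-38125571, minus strand, for Rbp4. Capitals mark every match, on either strand, to the nuclear receptor half-site AGGTCA, the TATA box TATAAA, the CCAAT box, the GC box GGGCGG, the E-box CACGTG, the AP-1 site TGACTCA or the HNF4 motif CAAAGTCCA, and no 2 matches overlap in these windows.
Stra6: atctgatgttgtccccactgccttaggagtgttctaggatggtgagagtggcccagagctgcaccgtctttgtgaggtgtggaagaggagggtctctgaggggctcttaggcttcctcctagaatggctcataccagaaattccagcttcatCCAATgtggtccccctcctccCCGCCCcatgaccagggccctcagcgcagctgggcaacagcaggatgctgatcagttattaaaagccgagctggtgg
Rbp2: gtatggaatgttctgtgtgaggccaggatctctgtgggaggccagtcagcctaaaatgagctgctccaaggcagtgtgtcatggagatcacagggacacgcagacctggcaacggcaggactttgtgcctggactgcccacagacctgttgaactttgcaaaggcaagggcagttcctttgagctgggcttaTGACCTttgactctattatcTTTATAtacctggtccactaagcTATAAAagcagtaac
Rbp4: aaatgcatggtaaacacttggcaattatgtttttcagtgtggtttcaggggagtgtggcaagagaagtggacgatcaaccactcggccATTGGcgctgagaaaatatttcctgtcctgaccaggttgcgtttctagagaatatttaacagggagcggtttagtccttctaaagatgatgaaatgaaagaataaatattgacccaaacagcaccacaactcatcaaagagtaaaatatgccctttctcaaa

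In Stra6 the capitals are a CCAAT box, whose first base lies 98 bases before the start, and a GC box on the opposite strand, 77 bases before it. In Rbp2 they are a half-site on the opposite strand, 58 bases before the start, and a TATA box on each strand, at 38 and 15 bases. In Rbp4 the single match is a CCAAT box on the opposite strand, 162 bases before the start. None of these motifs is rare: among 32851 RefSeq windows of 300 bases, which reach 50 bases past the start, 37.4% hold CCAAT, 35.7% the GC box, 16.3% the half-site and 13.6% the TATA box. The windows of Stra6, Rbp2 and Rbp4 were 55.7%, 50.3% and 40.7% G and C and held 5, 4 and 5 CpG, against medians of 52.7% and 7 over all windows. RefSeq gives 4 starts for Stra6 and 2 for Rbp4, and counts per gene do not say which start was used. Windows of Rbp7 and Crabp1 were also found, while Ttr and Crabp2 had none in the table.

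The retinoic acid binding proteins were close to the limit of detection. Crabp2, which delivers retinoic acid to its nuclear receptor, had 6 counts in wt, 8 in scr 25-2 and 7 in scr 50-1, while knockdown 25-3, 50-2 and 50-5 had 2, 4 and 7. The exact 95% Poisson intervals of the lowest and the highest of these counts, 0.242 to 7.22 and 3.45 to 15.8, overlap, and a difference in Crabp2 was not detectable at this depth, although its 3 knockdown libraries, at 0.0703 to 0.235 RPKM, lay below both scr libraries, at 0.273 and 0.302. In a fit without the RPKM filter its log2 fold change was -0.94 (95% interval -2.58 to 0.69, FDR 0.458, edgeR quasi-likelihood test). Crabp1 had 1 count in knockdown 50-2 and 0 in the other 5 libraries. Rbp7, a retinol binding protein of fat and endothelium, had 2 counts in scr 50-1, 1 in knockdown 50-2 and 0 elsewhere. For a library at 0, the floor of 3 counts, the one-sided 95% limit for a count of 0, would be 0.113 to 0.143 RPKM for Crabp1 and 0.153 to 0.194 RPKM for Rbp7.

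The knockdown libraries differed among themselves most in Ttr. Its highest level, in knockdown 25-3, was 11.6 times its lowest, in knockdown 50-5, whereas the factor was 1.67 for Rbp2, 1.58 for Stra6, 1.45 for Rbp4 and 1.09 for Midn. Knockdown 50-5 had the lowest Ttr and Rbp4 and the highest Stra6 of the 3. Knockdown 50-2 had the highest Rbp2. Between a knockdown library and the scr library that shares the 25 or 50 in its title, Stra6 was 3.52-fold higher in the pair labelled 25 and 3.76-fold (50-2) and 5.72-fold (50-5) higher in those labelled 50. For Ttr, the same pairs differed by -5.53, -7.21 and -9.20 on the log2 scale of RPKM, and for Rbp4 by 0.37, 0.16 and -0.23. With the 25 or 50 as an added term in the edgeR fit, Ttr, Stra6 and Rbp2 were called (FDR 0.0236, 0.0296 and 0.0459, Benjamini-Hochberg adjustment).

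**Figure D3:**
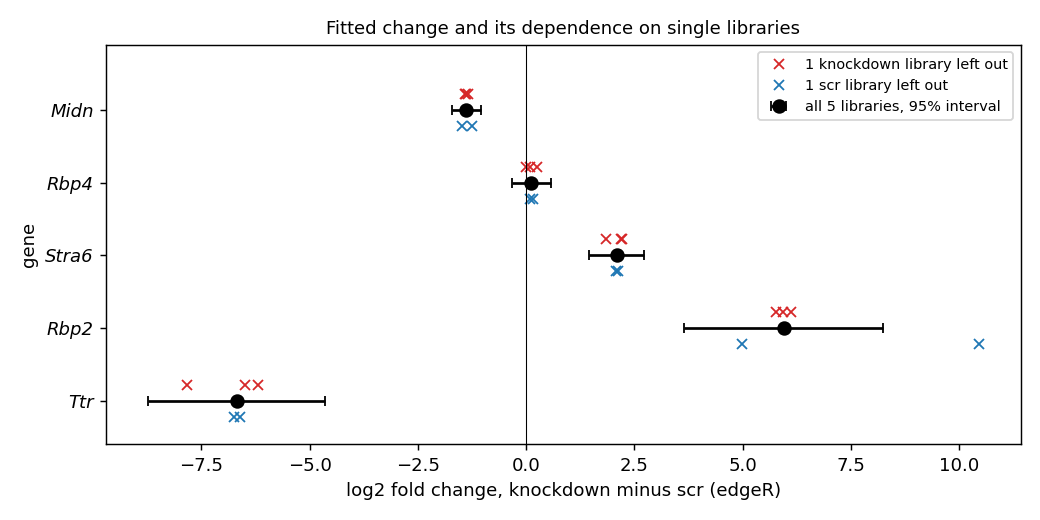
Log2 fold change of the 4 members tested and of Midn between knockdown and scr, with black points for the fit to all 5 libraries, bars for its 95% interval, and crosses for fits that leave out 1 knockdown (red) or 1 scr (blue) library. Rbp4 straddles 0, at 0.11, and the crosses of Rbp2 without an scr library lie at 4.99 and 10.5, of which the latter was fitted against a single library at 0 counts and sets no bound.

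The wt level was 136% of the scr mean for Ttr, 110% for Stra6 and Midn, 88.9% for Crabp2, 182% for Rbp4 and 542% for Rbp2, the last from 12 counts against 5 and 0. It lay outside the range of the 2 scr libraries for all 5 of these members, and nearer to the scr mean than to the knockdown mean for each of them except Rbp4, whose wt level was above all 5 transduced libraries. With 1 wt library these differences have no replicate check.

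Of 10 other listed genes of retinol uptake and carriage, 6 were tested, 1 was up-regulated and 2 were down-regulated, where 10.6% of all genes were called, with a median log2 fold change of -1.45 against -0.0097 over all genes tested. All 6 had an unadjusted p under 0.05, against 31.5% of all genes, and DESeq2 called 4, against 20.1%. Scarb1, a lipoprotein and carotenoid receptor, rose (log2 fold change 1.11, standard error 0.231, FDR 0.0394, edgeR quasi-likelihood test). Lrp1, a receptor for lipoprotein remnants that carry dietary retinyl esters, fell from a mean of 39.1 to 6.89 RPKM (-2.52, standard error 0.123), and Lpl, which hydrolyses the fats of these particles, fell from 113 to 15.3 RPKM (-2.89, standard error 0.292). Scarb1 was not called without any 1 of the 3 knockdown libraries or in limma with a pseudocount of 0.1, and Lpl was not called without knockdown 50-2.

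Of 22 listed enzymes that convert retinol or retinal, 13 were tested, 1 rose, 2 fell and 10 were not called, where 10.6% of all genes were called, and the median log2 fold change was -0.16. DESeq2 called 5 of them, against 20.1% of all genes, and 7 had an unadjusted p under 0.05 in edgeR, against 31.5%. Without knockdown 50-2 edgeR called 1 of them, where it called 131 of 11529 genes in all. Aldh1a1, which makes retinoic acid from retinal, fell from a mean of 758.2 to 198 RPKM (log2 fold change -1.95, standard error 0.193, FDR 0.00777, edgeR quasi-likelihood test), and it was not called without knockdown 50-2. Rdh11, a retinal reductase, fell by 0.91 on the log2 scale (standard error 0.175, FDR 0.0328), and it was not called without any 1 of the knockdown libraries or scr 50-1, with the 25 or 50 as an added term, or in limma with a pseudocount of 0.1. Adh7, an alcohol dehydrogenase that oxidizes retinol, had 3 to 7 counts in scr and 333 to 402 in knockdown libraries (log2 fold change 6.02, standard error 0.437, FDR 0.00508, edgeR). Like Rbp2, Adh7 passed the RPKM filter only through the knockdown libraries, and it was called in all 14 alternatives, the fit without that filter among them. Rdh10, which makes retinal from retinol, had 6.48 and 19.5 RPKM in scr 25-2 and 50-1 and 54.5, 44.7 and 94.2 RPKM in knockdown 25-3, 50-2 and 50-5, with an FDR of 0.0591. Lrat, which stores retinol as esters, was at or below 0.00656 RPKM in every library.

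The receptors and most target genes of retinoic acid gave little to compare. Of 10 genes for receptors and for the breakdown of retinoic acid, 4 were tested, and Rara, Rarg, Rxra and Rxrb had log2 fold changes between -0.20 and 0.30. None of the 4 was called by edgeR or by DESeq2, against 10.6% and 20.1% of all genes. In edgeR 0 had an unadjusted p under 0.05, against 31.5%. Counts over only 4 genes cannot tell the list from all genes. Of 11 textbook target genes, only Tgm2 and Dhrs3 were expressed highly enough to be tested. Tgm2, a transglutaminase, fell from a mean of 106 to 41.1 RPKM (log2 fold change -1.38, standard error 0.144, FDR 0.00860, edgeR quasi-likelihood test). Dhrs3, a retinal reductase, had a log2 fold change of -1.21 and an FDR of 0.148 in the same test. No alternative that kept more than a single library in each group called Dhrs3.

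Relatives of the members by protein family were mostly silent. Of 10 fatty acid binding proteins, which share their fold with RBP2, RBP7 and the CRABPs, 2 were tested. Fabp4, the adipocyte form, rose from 2 to 22 counts in scr to 595 to 728 in knockdown libraries (log2 fold change 5.60, standard error 0.795, FDR 0.0160, edgeR quasi-likelihood test). Its log2 fold change ran from 4.34 to 8.10 over the 14 alternatives, and like Rbp2 it was not called without any 1 of the knockdown libraries. Fabp5, which also binds retinoic acid, had a log2 fold change of 1.14 and an FDR of 0.125 (edgeR quasi-likelihood test), but it was called by DESeq2. Of 9 lipocalins, the family of RBP4, 2 were tested, and neither was called by edgeR. Both had an unadjusted p under 0.05, against 31.5% of all genes, and both were called by DESeq2, against 20.1%. With wt added to the controls edgeR called both, where it called 1648 of 11647 genes in all. One of the 2 lipocalins tested, Ambp, had 0.402 RPKM in scr 25-2 and 56.5 in scr 50-1, so the scr libraries themselves lay far apart. The knockdown libraries of Ambp were at or below 0.200 RPKM.

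Of 11 transcription factors of the liver, among them known activators of Ttr such as Hnf4a and Foxa2, none was called by edgeR, with 3 at an unadjusted p under 0.05, and DESeq2 called 2, shares near those over all genes given above. That count was not stable: with wt added to the controls, where 1648 of 11647 genes were called, edgeR called 2 of the 11. Their median log2 fold change was 0.091. Hnf4a had 33.9 and 11.0 RPKM in scr 25-2 and 50-1 and 65.5, 65.4 and 29.6 RPKM in knockdown 25-3, 50-2 and 50-5, so its groups overlapped. The groups overlapped for 7 of the 11 factors. Foxa1, Foxa3 and Cebpa lay below both scr libraries in all 3 knockdown libraries, with log2 fold changes of -1.92, -0.51 and -1.15 at FDRs of 0.0676, 0.153 and 0.220 (edgeR quasi-likelihood test).

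**Figure D4:**
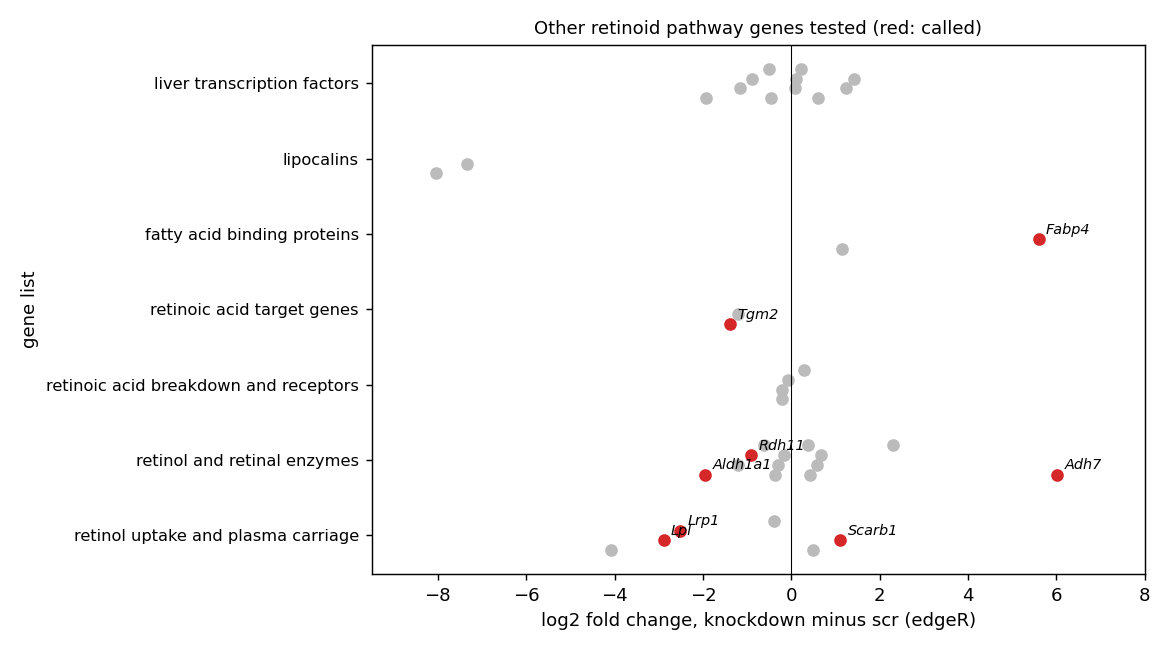
Log2 fold change between knockdown and scr of every tested gene in 7 lists of other retinoid pathway, family and liver genes, 1 point per gene, red and named where called. Called genes lie between -2.89 (Lpl) and 6.02 (Adh7), and the 2 lipocalins at the far left were not called, with a fitted size that depends on knockdown libraries at or near 0 counts.

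Neighbouring genes, those whose annotated span came within 200 kb of the span of Stra6, Ttr or Rbp4, were read next, where 10.6% of all genes tested were called. Of 12 neighbours of Stra6, 5 were tested and 1 was called, Sema7a, which encodes a semaphorin and rose from 0.258 and 0.255 RPKM in scr 25-2 and 50-1 to 1.63, 2.21 and 1.32 in knockdown 25-3, 50-2 and 50-5 (log2 fold change 2.73, FDR 0.0139, edgeR quasi-likelihood test), so that it passed the RPKM filter only through the knockdown libraries. Another, Cyp11a1, a steroid-producing enzyme, had a log2 fold change of 3.57 at an FDR of 0.0768 (edgeR quasi-likelihood test). Like Sema7a, it passed that filter only through the knockdown libraries. Its fitted size rests on 38 and 2 counts in scr 25-2 and 50-1, while wt had 120 counts, at 1.47 RPKM. The other 3 tested neighbours of Stra6 lay between -0.19 and 0.35. Of 6 neighbours of Ttr, 3 were tested, with log2 fold changes of -0.62 for Dsg2, -1.68 for B4galt6 and -0.012 for Trappc8. Dsg2 was called at an FDR of 0.04996, and B4galt6 had an FDR of 0.0523 (edgeR quasi-likelihood test). The scr libraries of B4galt6 themselves lay far apart, at 26.1 RPKM in 25-2 and 72.0 in 50-1, and wt had 29.1 RPKM. The 4 tested neighbours of Rbp4 ran from -0.041 to 1.09, the latter being Pde6c at an FDR of 0.0677.

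Genes with the most similar profile over the 6 libraries were found by Pearson correlation of log2(RPKM + 1) among 11645 other genes. This describes 6 points that fall into knockdown and control libraries. Any gene whose level split these libraries cleanly scores high, whatever the size of its change. A correlation of 0.9 was exceeded by 775 genes with Ttr, 905 with Rbp2, 897 with Stra6 and 63 with Rbp4. For Ttr the 3 nearest were Man2b1 (0.998), Samd1 (0.997) and Acaa2 (0.997). Their log2 fold changes were only -0.66, -0.55 and -1.19, against -6.68 for Ttr, and Samd1 was not called. For Rbp2 the nearest were Arhgap29 (0.999), C230014O12Rik (0.999) and Sbk1 (0.998), and for Stra6 Car8 (0.999), Shroom3 (0.999) and Eno2 (0.999). The choice of nearest genes depended on the pseudocount: with 0.1 in place of 1, the nearest 3 shared 1 gene for Ttr, 1 for Rbp2 and 0 for Stra6. Shroom3 had 0.370 and 0.396 RPKM in scr 25-2 and 50-1 and, like Stra6, was highest in knockdown 50-5, at 10.3 RPKM against 6.20 in each of the other 2 knockdown libraries.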

How the data were processed

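Total RNA of 6 Hepa1-6 libraries was depleted of ribosomal RNA and sequenced as single reads. Tophat2 alignments to mm10 were counted per RefSeq gene with HTSeq by the authors, who deposited these counts without normalization. RPKM values, which the authors computed in edgeR with TMM scaling, were deposited too. Whether counting used strand is not given in the sources used here.

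Counts were tested with edgeR 4.0.16 (quasi-likelihood test, TMM, Benjamini-Hochberg adjustment over all genes tested) in R 4.3.3, for 3 knockdown against 2 scr libraries, among genes over 1 RPKM in at least 1 of them. Standard errors were obtained by dividing the size of the log2 difference by the root of the F statistic. DESeq2 1.42.0, limma 3.58.1, other scalings and filters, wt as a control and leaving out each library were alternatives. The fit was tested on simulated data. Counting error was small beside the biological coefficient of variation (0.272), except for members with few counts. All 7 members are named, and of the lists all called genes may be named. Uncalled genes of the lists that are named were chosen after their values were seen. Members, lists and rules were chosen with earlier results of these data known. The neighbourhood of Rbp2 was not analysed here, and some genes, with the nearest profiles to Rbp4, are not reported here.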

Additional observations from a re-analysis of the deposited data

How the results depend on the processing

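Over 14 alternatives the sign of Ttr, Stra6, Rbp2 and Midn held. Rbp4, not called in any of them, had log2 fold changes of -0.22 with wt added to the controls and -0.0057 to 0.25 with 1 library left out. With 1 library left out, the ranges were -7.83 to -6.19 for Ttr, 1.85 to 2.21 for Stra6, 4.99 to 10.5 for Rbp2 and -1.49 to -1.24 for Midn, and 0 to 3 members were called. The fit without knockdown 50-2 called none of the members, nor Midn (FDR 0.0525, edgeR), while 2483 genes there had an unadjusted p under 0.05. Its 131 calls over all genes show that it called few genes of any kind. On the log2(RPKM + 1) scale of limma, which compresses low levels, the log2 fold change of Rbp2 was 3.03.

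Calls over all genes numbered 1230 (625 up, 605 down), 2322 (1167 up, 1155 down) with DESeq2, 807 (388 down) with the 25 or 50 as an added term, and 131 to 2273 (89 to 1146 up, 42 to 1127 down) with 1 library left out. Few libraries per group limit every call, and counts at or below 12 limit Crabp1, Crabp2, Rbp7, the wt and scr levels of Rbp2 and the level of Ttr in knockdown 50-5, with the ratios and spread that rest on it.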
